A study of Mus musculus with 6 samples.

Results

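The genes described here are 10 genes of S phase and mitosis, named by symbol and taken from a table of 10245 genes measured in whole mouse pancreas. They comprise 6 replication genes (Mcm2, Mcm3, Mcm4, Mcm5, Mcm6 and Pcna) and 4 genes of G2 phase and mitosis, called mitotic genes below (Mki67, Top2a, Ccna2 and Cdk1). RNA was sequenced from 3 control mice of genotype Ptf1a(CreER/+), aged 4 months, and from 3 Ptf1a cKO mice of genotype Ptf1a(CreER/fl), aged 5 months, at 1 library per mouse. All 6 mice had 3 daily gavages of tamoxifen at 0.25 mg per g and were killed on day 14, counted from the first dose. CreER, a Cre recombinase that needs tamoxifen, was expressed from a Ptf1a allele that makes no PTF1A protein, so that the controls carried 1 working copy and the Ptf1a cKO lost its floxed copy only in cells in which that locus was active, chiefly acinar cells. Age followed genotype, and the effects of the 2 cannot be told apart. The controls were 1 male and 2 females, as were the Ptf1a cKO, and control 1 and Ptf1a cKO 2 were the males.

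Ptf1a itself, which encodes the transcription factor that maintains acinar cells, read 566, 601 and 652 normalized counts in the controls and 19.8, 70.1 and 10.2 in Ptf1a cKO 1, 2 and 3. The labels and the targeted gene therefore matched in all 6 libraries, with the highest remaining level in Ptf1a cKO 2. The tissue label was checked against 12 acinar markers, all of which were in the table, with the enzyme genes Ctrb1 and Cela2a the highest. Of these 12, 10 were lower in Ptf1a cKO by limma (adjusted p under 0.05), against 16.8% of all genes. Ctrb1 (limma adjusted p = 0.0864) and Pnlip (0.0637) did not pass, though every Ptf1a cKO library was below every control for both. The summed counts of the 12 lay between 10401355 and 13128503 in the controls and between 1292154 and 4034552 in Ptf1a cKO, again highest in Ptf1a cKO 2. The deposited counts summed to 17949889 to 21175836 per control library and 5527104 to 8981107 per Ptf1a cKO library, while the median gene read 125 to 128.5 in every library. The question was whether replication genes and mitotic genes differed between the 2 genotypes, and whether they did so together. In whole tissue, more cells in cycle and more RNA per cycling cell cannot be told apart.

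Before a cell can copy its DNA, the origin recognition complex and its partners load the MCM helicase, a ring of the 6 related proteins MCM2 to MCM7, onto replication origins during G1. The ring unwinds DNA in S phase, and PCNA is the sliding clamp that holds DNA polymerases on the template. Cyclin A2 and the kinase CDK1 drive cells through G2 and into mitosis, topoisomerase II alpha untangles the copied strands, and Ki-67 coats mitotic chromosomes and is widely used as a marker of cells in cycle. Transcription of the replication genes is known to depend on E2F factors. That of the mitotic genes is known to depend on the MuvB complexes, which bind the CHR element and, through NF-Y, on CCAAT boxes. Most adult acinar cells are quiescent and re-enter the cycle after injury.

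Promoters were examined because these 2 gene groups are known for different promoter elements. RefSeq (build GRCm38.p6) gave a promoter window, 250 bases before to 50 bases after the annotated start, for 8 of the 10 genes, which left out Mcm4 and Ccna2. The 160 bases directly before the start are printed for 6 genes: Mcm5 and Mcm6, which rose, Mcm2, a helicase gene that did not pass the test, Mki67 and Top2a, which rose, and Cdk1, which held matches of all 3 kinds. Capitals mark matches to an E2F-type element (TTTGGCGC, TTTCGCGC, TTTCCCGC or TTTGCCGC), to a CHR (TTTGAA or TTCGAA) and to CCAAT, on either strand.
Mcm2 (chr6:88898781-88898940, minus strand): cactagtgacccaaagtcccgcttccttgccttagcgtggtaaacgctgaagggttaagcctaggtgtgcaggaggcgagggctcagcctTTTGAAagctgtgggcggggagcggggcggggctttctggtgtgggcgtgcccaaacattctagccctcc
Mcm5 (chr8:75109349-75109508, plus strand): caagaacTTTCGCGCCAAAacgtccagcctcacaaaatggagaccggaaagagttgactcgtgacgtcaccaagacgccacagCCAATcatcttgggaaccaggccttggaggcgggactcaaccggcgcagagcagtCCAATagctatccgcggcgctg
Mcm6 (chr1:128359706-128359865, minus strand): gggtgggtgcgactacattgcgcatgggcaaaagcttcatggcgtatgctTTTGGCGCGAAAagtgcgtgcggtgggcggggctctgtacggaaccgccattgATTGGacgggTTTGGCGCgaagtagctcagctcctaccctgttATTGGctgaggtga
Mki67 (chr7:135716380-135716539, minus strand): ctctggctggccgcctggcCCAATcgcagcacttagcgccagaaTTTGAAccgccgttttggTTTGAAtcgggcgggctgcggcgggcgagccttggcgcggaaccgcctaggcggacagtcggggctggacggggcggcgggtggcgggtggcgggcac
Top2a (chr11:99024190-99024349, minus strand): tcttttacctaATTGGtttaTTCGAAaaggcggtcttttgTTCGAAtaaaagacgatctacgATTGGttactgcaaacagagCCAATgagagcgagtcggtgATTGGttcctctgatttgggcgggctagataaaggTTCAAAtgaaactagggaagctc
Cdk1 (chr10:69352913-69353072, minus strand): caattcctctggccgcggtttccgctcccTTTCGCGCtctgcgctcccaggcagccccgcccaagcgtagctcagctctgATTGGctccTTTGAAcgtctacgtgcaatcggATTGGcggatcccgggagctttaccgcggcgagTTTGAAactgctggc

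The E2F-type letters stood in the windows of 4 of the 8 genes, Mcm3, Mcm5, Mcm6 and Cdk1, against 4.04% of the 7732 table genes with a window. Mcm6 held 3 matches, a pair on opposite strands that shared bases (first bases at -110 and -106) and a further one at -47. In Mcm5 a similar overlapping pair began at -153 and -149, whereas both matches of Mcm3 lay after the start, at 20 and 39. None of these letters was in the windows of Mcm2 or Pcna. The window of Mcm7, a helicase gene outside the 10 that did not pass the test, held 2 E2F-type matches and 1 CHR match, so that the letters did not separate the genes that rose from the others. CHR letters were found in Mki67, Top2a, Cdk1 and Mcm2, that is in 4 of 8, against 12.6% of table genes. Top2a had 4 CHR matches and 6 CCAAT boxes, and Mki67 had 2 CHR matches with 3 CCAAT boxes. All 8 windows held CCAAT, against 38.4% of table genes. The annotated direction of Mcm5 and Mcm6 could not be checked against a transcript, and a match of letters is a description of the sequence, not a bound site.

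**Figure D1:**
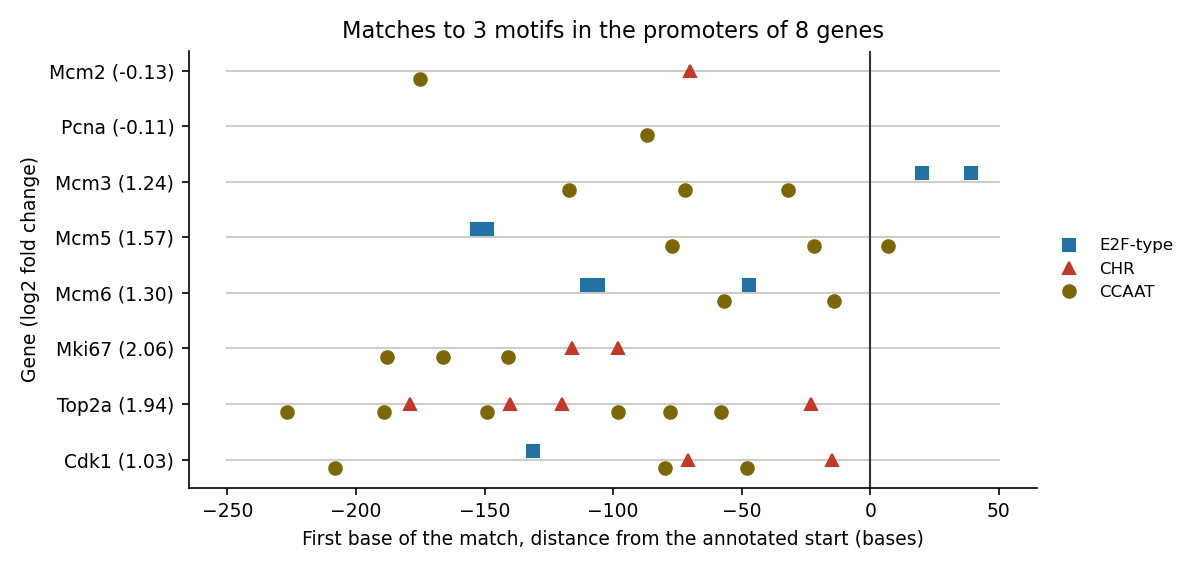
The horizontal axis gives the distance in bases from the annotated start to the first base of each match in 8 promoter windows, with the gene's log2 fold change beside its name. E2F-type matches are seen in Mcm3, Mcm5, Mcm6 and Cdk1, and CHR matches in Mcm2, Mki67, Top2a and Cdk1.

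Of the 10 genes, 6 were higher in Ptf1a cKO by limma across all genes (adjusted p under 0.05), none was lower (unadjusted p under 0.05 for 6 of the 10, all higher), and 4 did not pass. Those that rose were the helicase genes Mcm3, Mcm4, Mcm5 and Mcm6 and the mitotic genes Mki67 and Top2a. Over all 10245 genes 33.9% passed, 17.1% as higher and 16.8% as lower, and the median log2 fold change of all genes was 0.036 against 1.24 for the 10 genes. Mcm3, Mcm5, Ccna2 and Cdk1 were in the table only because a Ptf1a cKO library reached its lowest retained maximum of 27.6, so the count of genes that rose is no test of the group. The groups of 3 did not overlap for the same 6 genes, against 50.8% of all genes (26.5% higher and 24.3% lower). For a single gene the exact permutation test of 3 against 3 cannot give a two-sided p below 0.10.

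**Figure D2:**
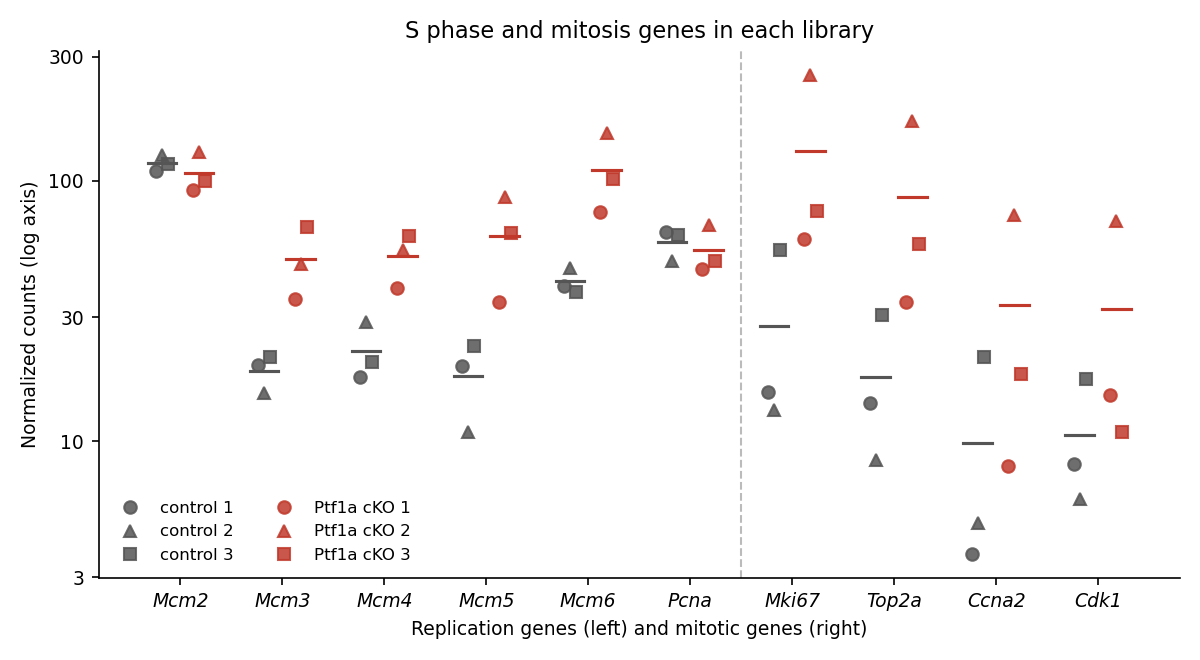
Each point is 1 library's normalized count (log axis) for 1 gene, with controls and Ptf1a cKO drawn apart. The 4 helicase genes Mcm3 to Mcm6 separate by genotype with modest spread, whereas the 4 mitotic genes spread widely in both groups and Ptf1a cKO 2 is the highest library for each.

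Mcm6, a helicase subunit, showed the smallest adjusted p of the 10. It read 39.5, 46.4 and 37.6 normalized counts in controls 1, 2 and 3 and 75.8, 153 and 102 in Ptf1a cKO 1, 2 and 3. Every Ptf1a cKO library was thus above every control, and the group means were 41.2 ± 4.64 and 110.4 ± 39.3 (SD, n = 3 each). The log2 fold change of Mcm6 was 1.30 (SE 0.24, limma adjusted p = 0.00329), on the scale of log2(value + pseudocount) used throughout.

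Mcm5, another helicase subunit, had the largest change of the replication genes. Its counts were 19.5, 10.8 and 23.2 in the controls and 34.2, 87.1 and 63.3 in Ptf1a cKO. The groups stood apart, with means of 17.8 ± 6.38 and 61.5 ± 26.5 (SD, n = 3 each) and a log2 difference of 1.57 (SE 0.37, limma adjusted p = 0.0109). Mcm3 read 19.6, 15.3 and 21 in the controls and 35.1, 48.1 and 66.6 in Ptf1a cKO, a log2 fold change of 1.24 (SE 0.28, limma adjusted p = 0.00916). Mcm4, which forms part of the catalytic core of the ring, read 17.6, 28.8 and 20.1 against 38.8, 54.4 and 61.2, a log2 fold change of 1.10 (SE 0.26, limma adjusted p = 0.0116). For these last 2 genes Ptf1a cKO 3 was the highest library, and neither overlapped between genotypes. The 4 calls held in all 6 fits that left out 1 library, with limma adjusted p no larger than 0.0431. Mcm3 and Mcm5 were in the table only through Ptf1a cKO libraries, a selection that these fits keep.

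Mcm2 did not follow the other helicase genes. Its counts were 109, 126 and 116 in the controls and 92.7, 129 and 99.6 in Ptf1a cKO, so that the groups overlapped. The log2 fold change was -0.13 (SE 0.15, limma adjusted p = 0.523), with a 95% interval from -0.47 to 0.20 that leaves out a rise of the size measured for Mcm3 to Mcm6. Pcna, the clamp, read 63.5, 49.1 and 61.8 against 45.9, 67.5 and 49.1, with 2 of 3 Ptf1a cKO libraries below every control and the other above. Its log2 fold change was -0.11 (SE 0.19, limma adjusted p = 0.695, interval -0.54 to 0.33). The sign of both genes depends on the scaling: with every library set to the same total, which moved the median of all genes to 1.49, Mcm2 came to 1.33 and Pcna to 1.31, both still under that median.

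A ratio within each library does not depend on that scaling. Counts were divided by exon length (GENCODE, GRCm38) to compare helicase subunits with each other. On this per-kilobase scale Mcm2 stood at 2.67, 2.92 and 2.65 times the mean of Mcm3, Mcm4, Mcm5 and Mcm6 in controls 1, 2 and 3. In Ptf1a cKO 1, 2 and 3 it stood at 1.19, 0.90 and 0.789 times that mean. These 4 genes were averaged because they rose, so the ratio is a description. The ranges lay far apart, and the Mcm2 excess of every control was small or gone in every Ptf1a cKO. Mean levels per kilobase in the controls ran Mcm2 16.8, Mcm6 8.82, Mcm4 6.18, Mcm3 4.97 and Mcm5 4.47, of which the last 3 did not differ beyond their spread. In Ptf1a cKO they ran Mcm6 23.7, Mcm2 15.4, Mcm5 15.4, Mcm4 14.3 and Mcm3 13.3, and the last 4 lay within the spread of one another.

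Mcm7, the remaining subunit of the ring, was not among the 10 genes. It read 54.6, 60.5 and 67 in the controls and 65.7, 85.3 and 67.9 in Ptf1a cKO, with 2 of 3 Ptf1a cKO libraries above every control. Its log2 fold change was 0.25 (SE 0.16, limma adjusted p = 0.254). Mcm7 overlaps Cops6 and Ap4m1 on the other strand, and whether reads were counted by strand was not given in the sources used here, so its level is uncertain.

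**Figure D3:**
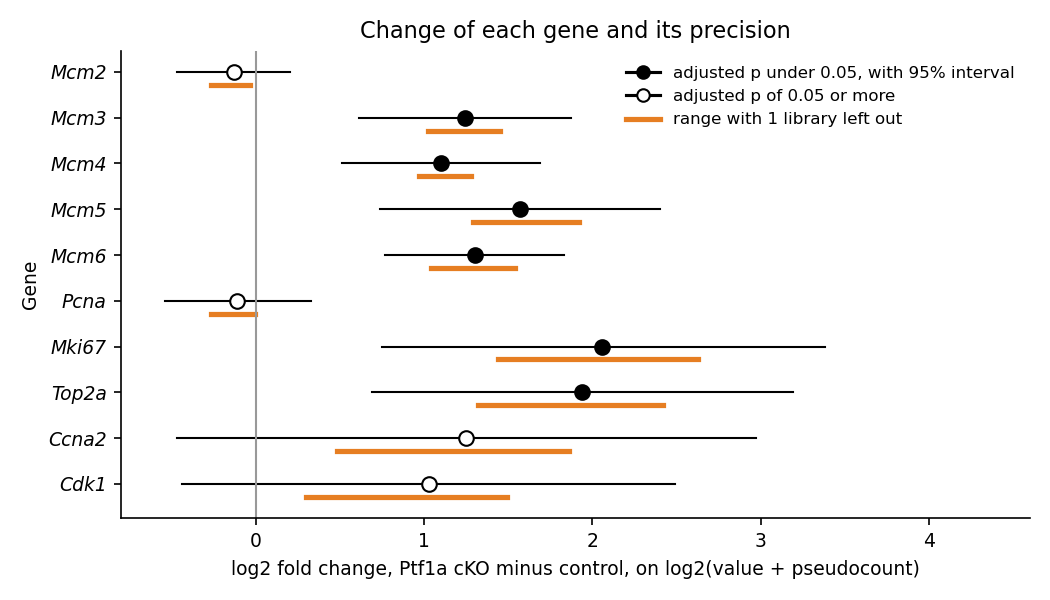
Points give the log2 fold change of each gene (Ptf1a cKO minus control, n = 3 each, filled where the limma adjusted p was under 0.05), black lines its 95% interval and orange bars its range with 1 library left out. Intervals of Mcm3 to Mcm6, Mki67 and Top2a lie above 0, those of Mcm2 and Pcna are narrow and span 0, and those of Ccna2 and Cdk1 are wide and span 0.

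Mki67 and Top2a had the largest changes of the 10 genes. Mki67 read 15.4, 13.2 and 54.3 in controls 1, 2 and 3 and 59.9, 256 and 76.6 in Ptf1a cKO 1, 2 and 3. The groups stood apart by little, since control 3 lay just below Ptf1a cKO 1, and Ptf1a cKO 2 was the highest library. The means were 27.6 ± 23.1 and 131 ± 109 (SD, n = 3 each), and Mki67 rose by 2.06 on the log2 scale (SE 0.58, limma adjusted p = 0.0241). Top2a followed the same order of libraries, with 14, 8.48 and 30.5 in the controls and 34.3, 169.9 and 57.2 in Ptf1a cKO. Its means were 17.6 ± 11.4 and 87.1 ± 72.6 (SD, n = 3 each), which gave a log2 difference of 1.94 (SE 0.55, limma adjusted p = 0.0252). Both calls rest on controls 1 and 2. Without control 1 the limma adjusted p was 0.0872 for Mki67 and 0.0773 for Top2a, and without control 2 it was 0.0846 and 0.0863. With robust variance estimation in limma the values were 0.084 and 0.0521.

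Ccna2 and Cdk1, which encode cyclin A2 and its kinase partner, did not pass the test. Ccna2 read 3.69, 4.83 and 21.1 in the controls and 8.06, 74.1 and 18.1 in Ptf1a cKO. Ptf1a cKO 2 alone exceeded every control, and control 3 was above both other Ptf1a cKO libraries. The log2 fold change was 1.25 (SE 0.76, limma adjusted p = 0.231), with a 95% interval from -0.47 to 2.97. Ccna2 overlaps Exosc9 on the other strand, so its level is uncertain in the same way as that of Mcm7. Cdk1 read 8.17, 6.01 and 17.4 against 15, 70.4 and 10.8, with Ptf1a cKO 2 once more alone above the controls. Its log2 fold change was 1.03 (SE 0.65, limma adjusted p = 0.246, interval -0.44 to 2.49). The intervals of both genes include 0 and also changes as large as those of Mki67 and Top2a.

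The mitotic genes thus varied between mice of 1 genotype far more than the helicase genes did. Over the 4 mitotic genes the median SD of log2 values within a group was 0.87 in the controls and 1.20 in Ptf1a cKO. For Mcm2 to Mcm6 it was 0.20 and 0.43, and for all genes with a mean count under 120 it was 0.22 and 0.21. Ptf1a cKO 2 read 3.75 times the mean of the other 2 Ptf1a cKO libraries for Mki67, 3.71 times for Top2a, 5.66 times for Ccna2 and 5.47 times for Cdk1. Ccna2 and Cdk1 reached the lowest retained maximum of 27.6 in Ptf1a cKO 2 alone. Their ratios and their spread in Ptf1a cKO are therefore partly set by that filter. Mki67 and Top2a also reached it in control 3. The same ratio was 1.79 for Mcm5, 1.72 for Mcm6, 1.42 for Pcna, 1.34 for Mcm2, 1.09 for Mcm4 and 0.947 for Mcm3. Ptf1a cKO 1 was the lowest Ptf1a cKO library in 9 of the 10 genes, and control 3 was the highest control in all 4 mitotic genes.

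To set helicase against mitotic genes, the mean log2 value of each set was taken in every library. For Mcm2 to Mcm6 it was 1.36, 1.37 and 1.46 in the controls and 1.99, 2.71 and 2.55 in Ptf1a cKO, a difference of 1.02. For the 4 mitotic genes it was -0.09, -0.29 and 1.21 against 0.97, 3.22 and 1.35, a difference of 1.57, and control 3 lay above Ptf1a cKO 1. Ptf1a cKO 3 therefore had helicase levels close to those of Ptf1a cKO 2 but mitotic levels close to those of control 3. The helicase set minus the mitotic set came to 1.46, 1.67 and 0.25 in the controls and 1.02, -0.51 and 1.20 in Ptf1a cKO. The means of 1.12 ± 0.77 and 0.57 ± 0.94 (SD, n = 3 each) differed by -0.55, less than the spread within either group. No shift of one set against the other was thus measurable with 3 mice a group, and leaving out 1 library moved the difference between -0.99 and -0.013. Mcm3, Mcm5, Ccna2 and Cdk1 were in the table only through Ptf1a cKO libraries, the last 2 through Ptf1a cKO 2 alone. The set means, and the differences taken from them, are therefore partly set by the filter on the lowest retained maximum.

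**Figure D4:**
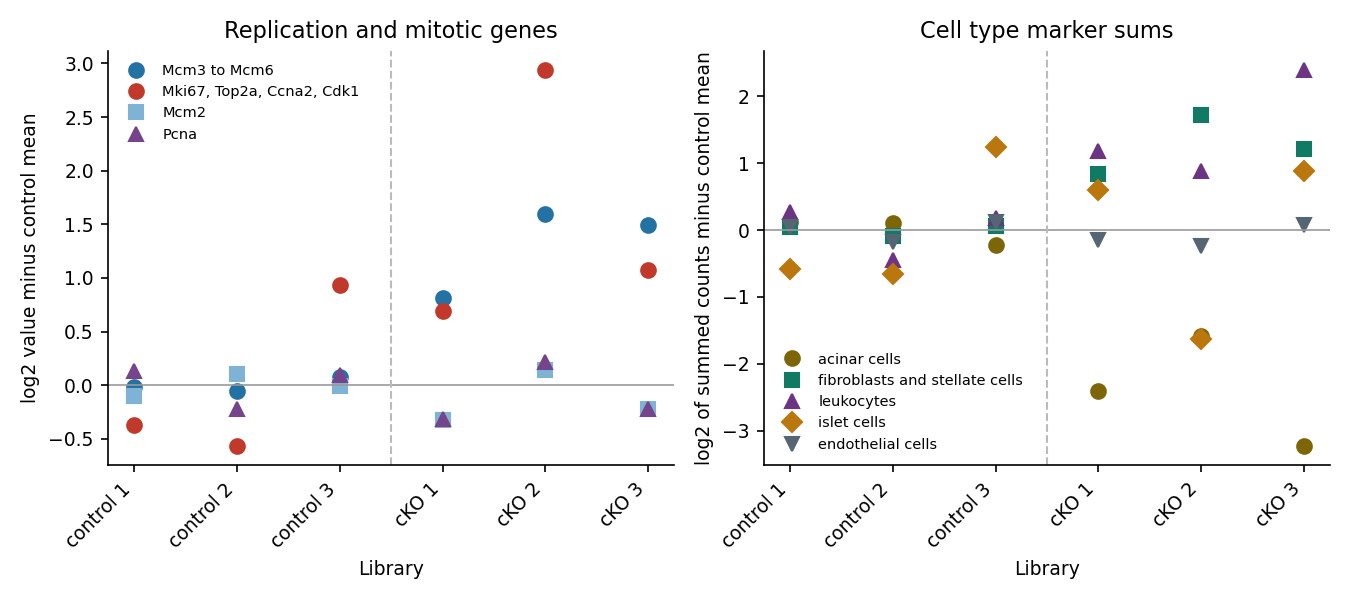
The left panel gives each library's log2 value of Mcm3 to Mcm6 (mean of the helicase genes that rose), the 4 mitotic genes (mean), Mcm2 and Pcna relative to the control mean, and the right panel the log2 of summed cell type marker counts relative to the control mean. Mitotic genes peak in Ptf1a cKO 2 and, among controls, in control 3, while islet markers are lowest in Ptf1a cKO 2 and highest in control 3.

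Marker sums of other cells in the pancreas also differed between these libraries, and the counts below stand against 17.1% of all genes higher. Fibroblast and stellate cell markers rose for 8 of 9, among them the matrix genes Col3a1 and Dcn. Their sum was 2836 to 3148 in the controls and 5431, 9955 and 6986 in Ptf1a cKO 1, 2 and 3, highest in the library with the most mitotic RNA. The list did not move as 1, since Acta2 (164, 73.2 and 168) and Des (43.3, 40.7 and 57.3) were lowest of the Ptf1a cKO in library 2. The other markers of the list were highest there. Leukocyte markers rose for 8 of the 11 in the table, among them the macrophage receptor gene Csf1r and the lysosomal Laptm5, with sums of 293 to 484 in the controls and 907, 735 and 2113 in Ptf1a cKO, lowest of the Ptf1a cKO in library 2. Of these 11, 7 were in the table by their controls alone, which leaves out the called Cd52 and Cd14, and the count was 4 without control 2 and 5 without control 1 or Ptf1a cKO 3. The leukocyte genes Cd3e, Cd3g, Cd79a and Ms4a1 were not in the table, and the B cell gene Cd79b was listed at 0 in Ptf1a cKO 1 and read 5.73 and 94.3 in Ptf1a cKO 2 and 3, against 2.51 to 7.94 in the controls. The T cell gene Cd4 read 12, 2.79 and 78.8 in Ptf1a cKO, so that Ptf1a cKO 3 stood above the other libraries for both. Cd79b and Cd4 reached the lowest retained maximum of the table in Ptf1a cKO 3 alone. The place of that library above the others was therefore fixed by the filter and is no result. Duct markers rose for 4 of 7, with sums of 3977 to 4901 in the controls and 92883, 25846 and 110284 in Ptf1a cKO, mostly from the secreted protein gene Spp1 and next from the mucin gene Muc1. None of 6 endothelial markers, led by Pecam1 and Kdr, passed in limma (unadjusted p under 0.05 for 1), with sums of 723 to 889 against 689 to 858. Islet markers, led by the insulin genes Ins2 and Ins1, of which none of 8 passed (unadjusted p under 0.05 for 0), summed to 12095, 11435 and 42859 in the controls and 27333, 5846 and 33414 in Ptf1a cKO, so that control 3 and Ptf1a cKO 2 were at opposite ends. The part of these cells in the levels of the 10 genes was not tested.

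Other genes of the same pathways were read from lists by role. Among genes that license origins and load the helicase, 8 of 20 were in the table. The other 12, among them Cdt1, Cdc6 and Mcm10, could not be read. None of the 8 passed in either direction, at a median log2 fold change of 0.036, equal to that of all genes. The smallest adjusted p in this list belonged to Orc4, a subunit of the origin recognition complex, at -0.37 (limma adjusted p = 0.0635), followed by Gins4, a helicase cofactor, at 0.28 (adjusted p = 0.179), and Mcm7. Orc4 was the 1 gene of the list with an unadjusted p under 0.05 in limma. Among the fits that left out 1 library, the one without control 3 gave a call, for Orc4 (adjusted p = 0.0203).

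At the replication fork 19 of 31 genes were in the table, and the other 12 could not be read. Of the 19, 3 rose, none fell (unadjusted limma p under 0.05 for 5 of 19), and the median was 0.20. This share of risers is no higher than the 17.1% over all genes, and 15 of the 19 were in the table by their controls alone. Rfc2, a subunit of the loader that places PCNA on DNA, read 77.6, 78 and 75.4 in the controls and 122, 113 and 123 in Ptf1a cKO, tight in both groups and apart, with a log2 fold change of 0.61 (limma adjusted p = 0.00437). Lig1, the ligase that joins Okazaki fragments, read 23.1, 21 and 19.6 against 33.9, 62.6 and 45.9, a log2 fold change of 1.01 (limma adjusted p = 0.0169, and 0.0508 without Ptf1a cKO 2), and it was in the table only through Ptf1a cKO libraries. Pold1, the catalytic subunit of DNA polymerase delta, rose by 0.80 (log2, limma adjusted p = 0.0178). The remaining 16 genes, which include the primase, replication protein A and flap endonuclease genes, did not pass. Among these, the primase gene Prim1 stood at 0.82 (limma adjusted p = 0.0599) and the replication protein A gene Rpa2 at 0.84 (0.0769). Every Ptf1a cKO library was above every control for both, but both were in the table only through Ptf1a cKO libraries. Their partners Prim2 and Rpa1 stood at 0.29 and 0.12, and the flap endonuclease gene Fen1 at 0.0032.

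Of 8 genes of nucleotide supply in the table, 1 rose and 2 had lower values past the test, with a median of -0.11, where 33.9% of all genes passed. Rrm1, the large subunit of ribonucleotide reductase, read 57.7, 50.1 and 36.9 in the controls and 86.5, 119 and 101 in Ptf1a cKO, a log2 fold change of 1.04 (limma adjusted p = 0.00361). Its partner Rrm2, the subunit that limits the enzyme in S phase, read 29.2, 38.3 and 46 against 16.1, 81.1 and 23.5, with Ptf1a cKO 2 above and the other 2 below every control (log2 fold change -0.20, limma adjusted p = 0.774). Ctps, which makes CTP, fell by 0.78 (log2, limma adjusted p = 0.00613). Dctpp1, which removes surplus dCTP, fell by 0.49 (log2, limma adjusted p = 0.0366), a call that was lost when any single library but Ptf1a cKO 2 was left out, with adjusted p from 0.0564 to 0.125. With every library set to the same total both genes were above 0, at 0.66 and 0.97, and below the median of all genes at that scaling.

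The mitosis list was mostly out of reach, since 42 of its 53 genes were not in the table. Of the 11 that were, 6 reached its lowest retained maximum in a control library, 4 rose and none fell (unadjusted limma p under 0.05 for 7 of 11, and 17.1% of all genes higher), at a median of 1.08. The genes that did not reach it in a control, Smc2 among them, were in the table only because a Ptf1a cKO library was high, so neither the count nor the median is a test of the list. The condensin genes led: Smc4 read 46.4, 43.2 and 60.7 in the controls and 77.4, 145 and 119.7 in Ptf1a cKO, a log2 fold change of 1.11 (limma adjusted p = 0.00661). Its partner Smc2 read 19.3, 6.15 and 11 against 25.8, 71.2 and 41.9, a log2 fold change of 1.66 (limma adjusted p = 0.0188). All 3 Ptf1a cKO libraries were above every control for both genes, and also for Bub3, a spindle checkpoint gene, which rose by 0.47 (log2, limma adjusted p = 0.0211), and for the condensin subunit gene Ncapd2, which rose by 1.31 (log2, limma adjusted p = 0.0223). Of these 4 calls only that of Smc4 held in all 6 fits that left out 1 library. The count was 2 without control 1, Ptf1a cKO 2 or Ptf1a cKO 3 and 1 without control 2.

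Among regulators of the G1 to S step 17 of 25 were in the table, of which 1 rose and 3 fell, at a median of 0.18, where 17.1% of all genes were higher and 16.8% lower. Ccnd1, the cyclin D1 gene, read 152, 170.0 and 198 in the controls and 58.3, 91.9 and 78.1 in Ptf1a cKO, every one below every control, with a log2 fold change of -1.17 (limma adjusted p = 0.00148). Ccnd3, the cyclin D3 gene, fell by 0.55 (log2, limma adjusted p = 0.0119). Tfdp1, the partner of E2F factors, fell by 0.69 (log2, limma adjusted p = 0.019), a call lost without control 1, control 3, Ptf1a cKO 1 or Ptf1a cKO 3. Cdkn1c, the gene of the CDK inhibitor p57, rose by 1.46 (log2, limma adjusted p = 0.0314), which was lost without any 1 control or without Ptf1a cKO 3 (adjusted p from 0.0515 to 0.0986), and it was in the table only through Ptf1a cKO libraries. With every library at the same total, Ccnd1 came to 0.29, Ccnd3 to 0.93 and Tfdp1 to 0.73, all 3 under the median of all genes.

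Lin37 encodes a subunit of MuvB, the complex that joins DREAM to silence cell cycle genes in quiescent cells. It read 154, 154 and 178 in the controls and 51.6, 68.7 and 45.2 in Ptf1a cKO, far apart, with a log2 fold change of -1.51 (SE 0.17, limma adjusted p = 3.08e-04). The call held in all 6 fits that left out 1 library, but with every library at the same total the value was -0.074 and did not pass. The median of all genes at that scaling was 1.49, so Lin37 still lay under it. The other MuvB genes in the table were Lin54, which holds the CHR binding domain, at -0.17 (limma adjusted p = 0.468), and Rbbp4, a histone binding subunit, at 0.019 (limma adjusted p = 0.90).

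**Figure D5:**
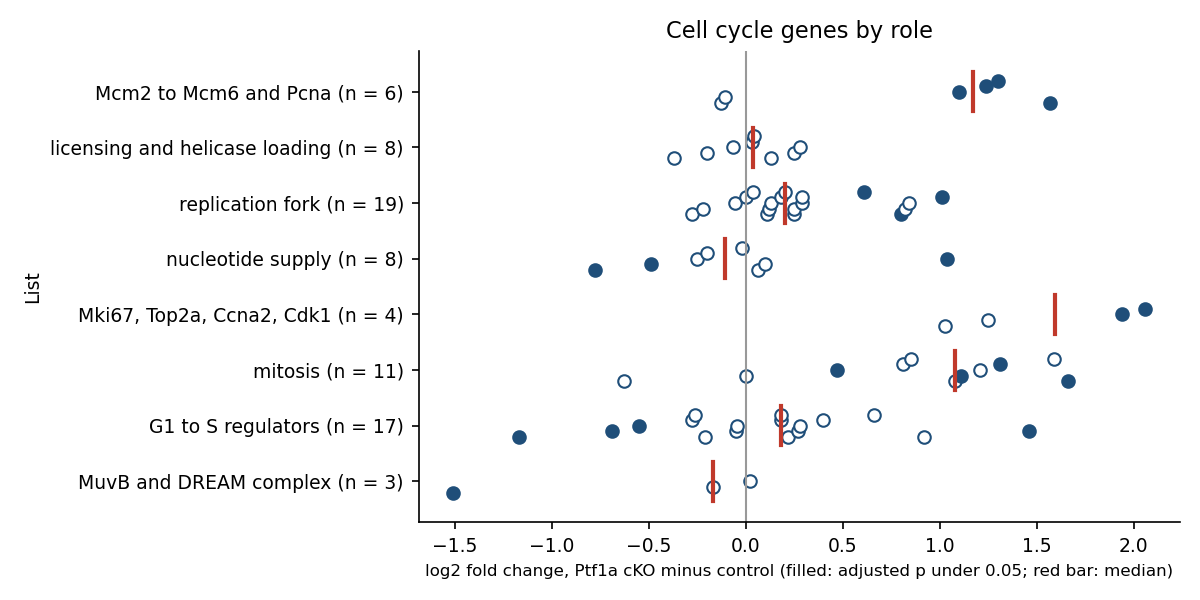
Each point is the log2 fold change (Ptf1a cKO minus control) of 1 gene, filled where the limma adjusted p was under 0.05, and the red bar is the median of its list. The medians are 1.08 for mitosis, 0.036 for licensing, 0.20 for the fork and -0.11 for nucleotide supply, but 6 of the 11 mitosis genes against 8 of 8 licensing genes were in the table by their controls alone.

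Profiles over the 6 libraries were compared by the root mean square difference of mean-centred log2 values, in which 0 is identity. Closest to the mean of the 4 mitotic genes were Prc1 at 0.23, which encodes a spindle midzone protein, Racgap1 at 0.26, which encodes a cytokinesis regulator, and Cdca3 at 0.34, a cell division gene, followed by Eda2r, a receptor gene, at 0.37 and the laminin gene Lamc3 at 0.40. Prc1, Racgap1, Cdca3 and Eda2r reached the lowest retained maximum of 27.6 in Ptf1a cKO 2 alone, and Lamc3 in Ptf1a cKO 2 and 3. Such genes could be in the table only by being high there, so their likeness to the mitotic profile is partly set by the filter. The 4 mitotic genes themselves lay at 0.24 to 0.38 from their own mean. Cdca3 read 6.94, 4.78 and 10.3 in the controls and 20.6, 75.9 and 21.9 in Ptf1a cKO, with a limma adjusted p of 0.0287. Closest to Mcm2 to Mcm6 were Fbln1 at 0.07, Rcn3 at 0.08 and Pvrl4, Sod3 and Fat1 at 0.09. None of these 5 is a replication gene, and Fbln1 and Sod3 encode secreted proteins. Each helicase gene lay farther from the mean of its own set, at 0.21 to 0.59, Mcm2 being the farthest. The 5 were picked as the closest of all genes outside the 10, and the mean includes Mcm2, which did not pass. Their order is therefore no measure of whether the helicase genes moved together.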

How the data were processed

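Whole pancreas RNA of 6 mice was sequenced (3 control, 3 Ptf1a cKO, grouped by title). The submitters' processing notes name TopHat2 2.0.4, Bowtie 0.12.7.0, SAMtools 0.1.18.0, HTSeq 0.6.0 and mm9. The authors deposited 1 table of normalized counts (TMM scaling in edgeR), used here as a signal: its values are not whole, and reads could not be recovered (at most 9.54% of values were whole within 0.02). The reads behind each value thus cannot be read from the table, and no counting interval was given. Each gene reaches 27.6 in at least 1 library, a filter not given in the sources used here. The 3 rows that name no gene, which equal 75.7 to 82.6% of a library's normalized counts, were left out, and 17 symbols had turned into dates.

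Values were divided by 13.6, 1 constant for all libraries set from their mean total, 0.25 was added (3.41 normalized counts), and log2 values were fitted with limma 3.58.1 (R 4.3.3, trended variance, two-sided) and adjusted by Benjamini-Hochberg over 10245 genes. The code was tested on simulated data. Pandas 2.3.3, scipy 1.17.1 and matplotlib 3.10.9 were run under Python 3.11.15. Exon lengths came from GENCODE (GRCm38, 94.5% of genes matched by symbol), not the authors' build. Pathway lists name the 3 genes of smallest adjusted p and all MuvB genes, cell type lists the 2 of highest mean, and profile matches name the 5 closest. Other genes were named after their values were seen. The lymphocyte marker list is not reported here. The genes and lists were chosen with earlier results of these data known. The alternatives were other scalings, pseudocounts, filters, variance models, covariates and thresholds, and fits without 1 library.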

Additional observations from a re-analysis of the deposited data

How the results depend on the processing

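The count of the 10 genes that rose was 6, and it was 10 with every library set to the same total and 2 at an adjusted p under 0.01. Without 1 library it lay between 4 and 6, and robust estimation gave 4. At the same total the median of all genes moved to 1.49, 9719 of 10245 genes passed (98.7% higher), and Mcm2 (1.33) and Pcna (1.31) turned positive. With the same total without the 50 highest genes Pcna came to 6.6e-05, and 3714 genes passed, 65.2% of them higher, against 3475 and 50.4%. At an adjusted p under 0.01, 1794 genes passed, and 2363 to 3601 did without 1 library. Helicase minus mitotic genes kept its sign in all 13 alternatives, from -0.99 to -0.013 without 1 library. Groups that did not overlap numbered 6 to 8 of 10 genes without 1 library and 10 without both control 3 and Ptf1a cKO 2, an alternative chosen after seeing the data that compares 2 with 2 and, by leaving out the highest mitotic library of each group, narrows the spread by itself. Mcm3 and Mcm6 kept their calls in all 19 alternatives. A filter on a mean of at least 1 removed no gene.

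Replicate numbers are shared between genotypes but mark different mice. Deviations of same-numbered mice correlated across genes at 0.04, 0.13 and 0.14, against -0.20 to 0.08 for mice of unlike number. All these values were small, and they do not settle whether the numbers pair the samples. With the number as a replicate block 3525 genes passed, among them 6 of the 10, and with sex as a covariate 3355 did, among them 6. The limma p-values rest on the spread between single mice, 3 per genotype. Each gene's variance is drawn toward a trend over all genes, so they do not measure that gene's own spread alone.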
